A study of Mus musculus with 2 samples.

Results

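The Sfmbt2 repeat-cluster miRNAs are the mouse miRNAs of the names miR-297, miR-466, miR-467 and miR-669, most of which lie in 1 intron of Sfmbt2. They were chosen by number, whatever the letter or the arm in the name. The rule used no measured value, though earlier results of these data were known. They filled 60 of the 717 rows of known mature miRNAs measured by small RNA sequencing: 6 rows for miR-297, 25 for miR-466, 10 for miR-467 and 19 for miR-669. Many of these miRNAs are near copies of each other, so rows with near-same sequences and equal counts in both libraries were counted once, which left 47 members. Those 8 members that stand for several names held 21 of the rows.

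Tumor-associated macrophages (TAMs) were taken with anti-CD11b magnetic beads from 4T1 tumors grown in BALB/c mice, and spleen macrophages (SMs) came from naïve BALB/c mice. 4T1 is a mouse mammary carcinoma line, and CD11b is an integrin found on macrophages but also on neutrophils, monocytes and natural killer cells. Each group was 1 library made from 3 µg of RNA, and no deletion or drug is given for either group. 4T1 cells were injected into females of 8 weeks of age, tumors were collected after 3 weeks, and BALB/c mice were bought at 6 to 8 weeks of age. The number of mice in each library, and the marker used to select the spleen cells, could not be taken from the labels or the methods.

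Sfmbt2 encodes a protein related to the Polycomb repressors and is imprinted, with expression from the paternal copy in the mouse placenta and other extraembryonic tissue. Its intron gained, in rodents, a long tandem array of miRNA hairpins, and deletion of the array impairs the mouse placenta. A hairpin yields a mature miRNA from each of its arms, named 5p and 3p. Argonaute proteins usually keep 1 arm more often than the other, and bases near the 5′ end of the kept strand, the seed, direct it to its target mRNAs.

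The sequences that carry most of the cluster's reads are shown first, because the results below divide by arm and by seed. They are written 5′ to 3′ as the deposited table gives them, with T for U, and the capitals mark the seed, bases 2 to 8. All of them match hairpins of the Sfmbt2 intron on chromosome 2. The first 5 are 5p arms of miR-669, of which miR-669a-5p, miR-669f-5p and miR-669l-5p share a seed.
miR-669a-5p: aGTTGTGTgtgcatgttcatgtct
miR-669f-5p: aGTTGTGTgtgcatgtgcatgtgt
miR-669l-5p: aGTTGTGTgtgcatgtatatgt
miR-669b-5p: aGTTTTGTgtgcatgtgcatgt
miR-669c-5p: aTAGTTGTgtgtggatgtgtgt
The next 4 are 5p arms of miR-467. miR-467c-5p and miR-467d-5p share a seed, and miR-467b-5p begins 1 base before miR-467a-5p, so the seeds of these neighbours are shifted against each other.
miR-467a-5p: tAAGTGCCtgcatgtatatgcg
miR-467b-5p: gTAAGTGCctgcatgtatatg
miR-467c-5p: tAAGTGCGtgcatgtatatgtg
miR-467d-5p: tAAGTGCGcgcatgtatatgcg
The last 4 are the most abundant 3p arm of each number. miR-466a-3p and miR-297a-3p share a seed although their numbers differ.
miR-467a-3p: cATATACAtacacacacctaca
miR-669a-3p: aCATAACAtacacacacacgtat
miR-466a-3p: tATACATAcacgcacacataaga
miR-297a-3p: tATACATAcacacatacccata

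The 2 arms of the repeat are of opposite composition. A median of 71.8% of the bases of the 5p members were G or T, against 59.1% over all 5p miRNAs of the table. In the 3p members a median of 77.3% of the bases were A or C, against 50% over all 3p miRNAs. The motif TGTGTG stood in 25 of the 30 5p rows of the cluster (83.3%), against 8.78% of all 5p rows, and in 0 of its 27 3p rows. The motif ACACAC stood in 19 of the 27 3p rows (70.4%), against 6.59% of all 3p rows, and in 0 of the 30 5p rows. Both motifs were searched in the mature strand as written, and on the opposite strand TGTGTG reads CACACA, which overlaps ACACAC. The members supplied 27 of the 34 rows with TGTGTG and 20 of the 23 rows with ACACAC in the whole table.

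How the arms face each other can be seen in a single hairpin, Mir467e at chr2:10505721-10505807 on the plus strand of GRCm38 (GENCODE M21), an intronic hairpin of 87 bases, with the letters of miR-467e-5p and miR-467e-3p in capitals.
Mir467e: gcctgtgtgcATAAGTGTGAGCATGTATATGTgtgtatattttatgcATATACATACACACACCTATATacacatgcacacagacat

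Sfmbt2 lies on chromosome 2 from 10370510 to 10595253 on the plus strand of GRCm38. A single intron, from 10461473 to 10523944, held all 119 miRNA hairpins annotated in the gene, and it is intron 11 of the principal transcript. The hairpins span 53.0 kb, and 71 of them are named for the 4 numbers. A run of miR-467, miR-466 and miR-669 hairpins in this order occurs 11 times among the named hairpins. Of the 47 members, 41 matched hairpins of this intron only, 3 matched the intron and another place, and 3 matched only hairpins elsewhere. The last 3 were miR-466i-5p, miR-466i-3p and miR-466k, so the name miR-466 does not by itself place a miRNA in Sfmbt2. The array limits what single members show: miR-669a-5p matched 15 hairpins of the intron, miR-466a-3p 15, miR-669a-3p 13 and miR-467a-5p, miR-467b-5p and miR-467a-3p 12 each.

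**Figure D1:**
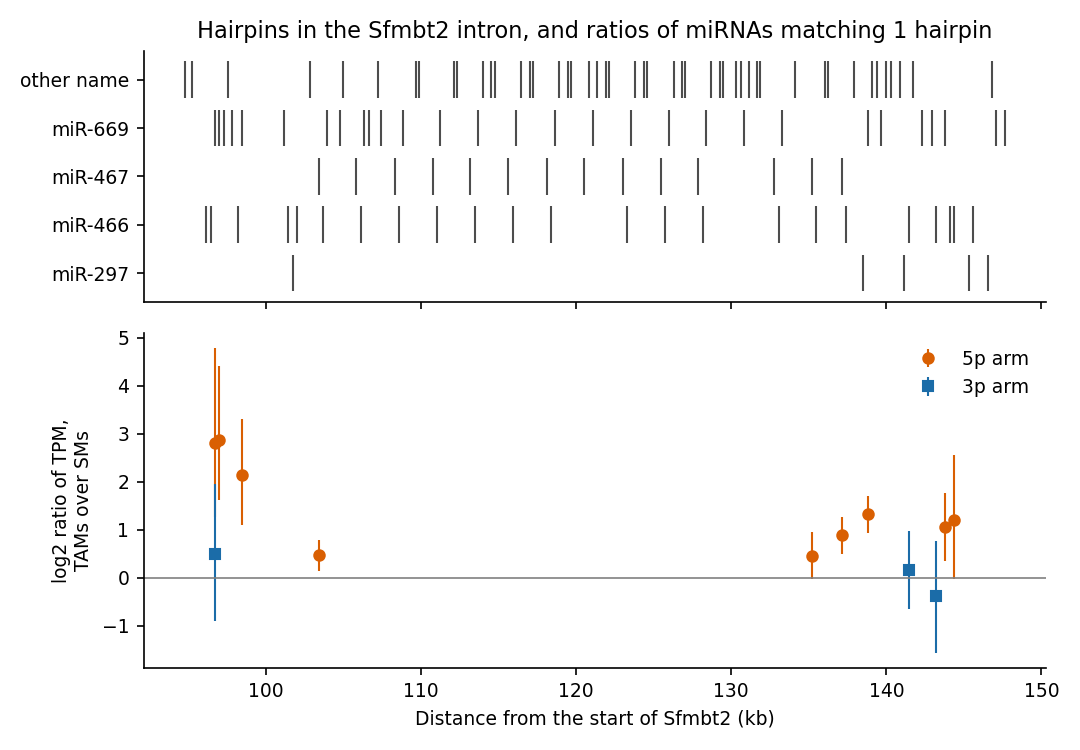
Upper panel, position of the 119 annotated hairpins of the Sfmbt2 intron by name, as distance in kb from the start of Sfmbt2 (x axis). Lower panel, log2 ratio of TPM, TAMs over SMs (y axis), with 95% counting intervals. Drawn are the members that match exactly 1 of these hairpins and nothing else and have at least 10 reads in a library. All 9 of the 5p members (circles) lie above 0, as do 2 of the 3 3p members (squares). The share of all miRNAs above 0 was not counted.

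The cluster was a small part of the miRNA reads in both libraries and a larger part in TAMs. It held 3159 of 7333652 miRNA reads in TAMs (0.0431%, exact Clopper-Pearson 95% interval 0.0416 to 0.0446%) and 2165 of 10108834 in SMs (0.0214%, 0.0205 to 0.0223%). The cluster's shared rows were counted once here, while these totals sum every row of the table. In TPM, the reads per 1000000 reads of a library total of 13324721 for TAMs and 15422872 for SMs, the cluster summed to 237 TPM in TAMs against 140.4 TPM in SMs. The ratio of TPM, TAMs over SMs, was 1.69, with an exact conditional binomial 95% interval of 1.60 to 1.78. No test between the groups can be made from a pair of libraries: every interval here covers counting error only, PCR copies are not independent molecules, and the spread between mice is unknown. Near copies with unequal counts, such as miR-467a-5p and miR-467b-5p, were both summed though they can hold the same reads. The intervals of such sums and shares are too narrow. Counting near-same sequences once whatever their counts gave a ratio of 1.80 (1.67 to 1.95). Fewer cells that carry a miRNA and fewer copies per cell cannot be told apart in such bulk RNA.

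The libraries also differed in miRNAs of other cells, which were listed with their values because a CD11b or spleen preparation can hold them. The 6 epithelial or tumor miRNAs of the miR-200 family and miR-205-5p summed to 1766 TPM in TAMs against 239 in SMs, and all 6 were at least 2-fold higher in TAMs. The 4 myeloid miRNAs of miR-223 and miR-142 summed to 7752 TPM in TAMs against 34561 in SMs, and the 4 red blood cell miRNAs summed to 1376 TPM in TAMs against 6022 in SMs. All 8 were at least 2-fold lower in TAMs, as were both lymphocyte miRNAs (1160 TPM in TAMs against 3989 TPM in SMs). The 6 stromal miRNAs summed to 2618 TPM in TAMs against 2453 in SMs, and 3 of them were at least 2-fold higher in TAMs. This near-even sum was mostly miR-143-3p, with 31814 of 34890 reads in TAMs and 37320 of 37830 in SMs. The median ratio of the 6 was 3.82. None of the 22 markers was at 0 in either library, and the lowest was an epithelial one, at 1 read in SMs. The part of these cells in the values of the cluster was not tested.

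A few members held most of the reads. The 10 members with most reads made up 79.4% of the cluster's reads in TAMs and 81.9% in SMs. miR-669a-5p alone made up 31.7% in TAMs and 16.7% in SMs, and ranked 135 in TAMs and 178 in SMs among the 717 rows of the table, every row counted. At least 1 read was found for 43 of the 47 members in TAMs and for 41 in SMs, and 10 or more reads for 24 in TAMs and 21 in SMs. The median member had 11 reads in TAMs and 8 in SMs, against 27 in TAMs and 26 in SMs for the median miRNA of the table.

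Members with at least 10 reads in a library were read by fold. Of these 26 members, 11 had a TPM at least 2-fold higher in TAMs (42.3%), where 28.1% of all 469 miRNAs with as many reads did. Another 3 were at least 2-fold lower in TAMs, where 29.4% of all miRNAs were, and 12 were in between. Scaled by the sum of miRNA reads in place of the authors' total, 12 members were past 2-fold higher and 1 past 2-fold lower, where 32.0% and 24.3% of all miRNAs were. The median ratio was 1.48 over the 26 members and 0.935 over all 469 miRNAs. For 14 of the 26 members the counting interval lay above 1, and for 1, miR-467a-3p, it lay below 1. The 14 include miR-467a-5p and miR-467b-5p, which hold nearly the same reads. Such intervals were not counted over all miRNAs, so they are not read as a trait of the cluster. Where a member had to pass 2-fold with an interval that left out 1, 10 were higher and 1 lower. Of all 469 miRNAs, 27.5% were higher and 28.4% lower by this rule.

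The direction followed the arm. Of the 18 5p members with at least 10 reads, 11 passed 2-fold higher in TAMs, where 28.8% of all 222 5p miRNAs did, and 1 passed 2-fold lower, where 29.3% of all 5p miRNAs did. Their median ratio was 2.19, against 0.916 over all 5p miRNAs. All 14 intervals above 1 belonged to them, but such intervals were not counted over all 5p miRNAs. Of the 8 3p members, 0 passed 2-fold higher in TAMs, where 27.5% of all 218 3p miRNAs did, and 2 passed 2-fold lower, where 30.3% of all 3p miRNAs did. Their median ratio was 0.866, against 0.938 over all 3p miRNAs. Summed over the arm, the 5p members had 2790 reads in TAMs and 1529 in SMs, which are 209 TPM in TAMs against 99.1 TPM in SMs, a ratio of 2.11 (1.98 to 2.25). The 3p members summed to 363 reads in TAMs and 632 in SMs, which are 27.2 TPM in TAMs against 41.0 TPM in SMs, a ratio of 0.665 (0.583 to 0.758). The sum of the 3p arm rests on 1 member: without miR-467a-3p it was 276 reads in TAMs and 338 in SMs, a ratio of 0.945 (0.803 to 1.11). Scaled by miRNA reads without the 10 most abundant miRNAs, the 3p ratio was 0.937 (0.821 to 1.07).

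**Figure D2:**
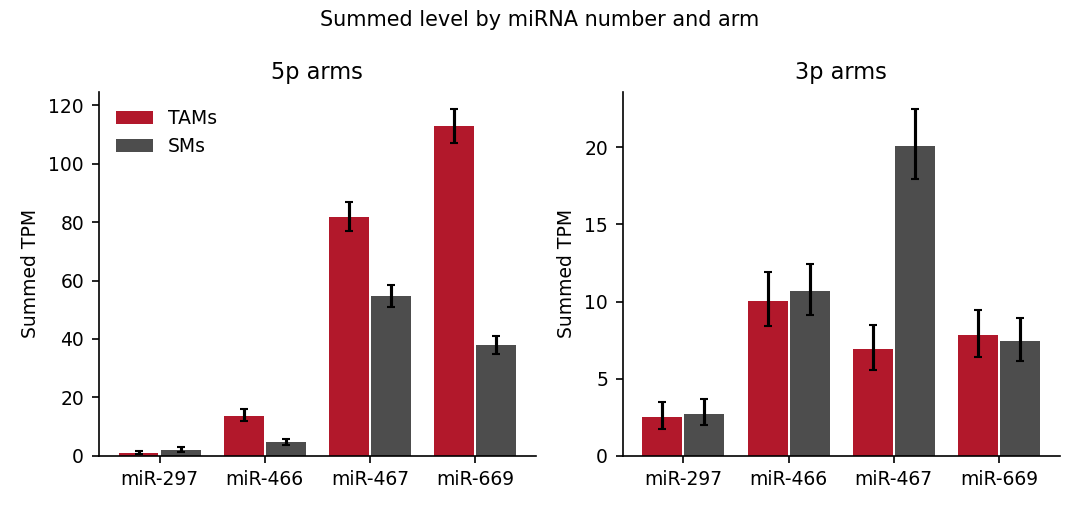
Summed TPM (y axis, from 0, on different scales in the panels) of the 5p arms (left) and the 3p arms (right) of each miRNA number, in TAMs (red) and SMs (grey); error bars are exact Poisson 95% intervals of the summed count. miR-669-5p reaches 113 TPM in TAMs against 37.8 TPM in SMs. miR-467-3p reaches 6.90 TPM in TAMs against 20.1 TPM in SMs.

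miR-669 carried the largest difference of the 4 numbers. Its members summed to 1607 reads in TAMs and 698 in SMs, 121 TPM in TAMs against 45.3 TPM in SMs, a ratio of 2.66 (2.44 to 2.92), and made up 50.9% of the cluster's reads in TAMs and 32.2% in SMs. All 8 of its 5p members with at least 10 reads passed 2-fold, where 28.8% of all 222 5p miRNAs did, with ratios between 2.03 and 7.33.

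miR-669a-5p, known in mouse cardiac progenitors as a repressor of the muscle regulator MyoD, was the most abundant member of the cluster. It had 1002 reads in TAMs and 361 in SMs, or 75.2 TPM in TAMs against 23.4 TPM in SMs, a ratio of 3.21 (2.85 to 3.63). The count includes miR-669p-5p, whose reads could not be separated from it. Without miR-669a-5p the other 5p arms of miR-669 still summed to 501 reads in TAMs and 222 in SMs, a ratio of 2.61 (2.23 to 3.07).

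The next 5p arms by abundance had ratios a little above 2. miR-669c-5p had 183 reads in TAMs and 85 in SMs (ratio 2.49, 1.92 to 3.26). miR-669b-5p had 91 reads in TAMs and 52 in SMs (2.03, 1.43 to 2.91). miR-669d-5p had 76 reads in TAMs and 37 in SMs (2.38, 1.58 to 3.62). These ratios overlap in their intervals, so no order can be read among them. miR-669o-5p, with 50 reads in TAMs and 28 in SMs, was near the edge of 2-fold (2.07, 1.28 to 3.41).

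The less abundant 5p arms had higher ratios and wide intervals. These intervals overlap those of miR-669c-5p and miR-669d-5p, so no order can be read against them. miR-669e-5p had 38 reads in TAMs and 6 in SMs, a ratio of 7.33 (3.07 to 21.2). miR-669l-5p had 38 reads in TAMs and 10 in SMs, a ratio of 4.40 (2.15 to 9.90). miR-669f-5p had 24 reads in TAMs and 4 in SMs, a ratio of 6.94 (2.39 to 27.5). Each of these 3 matches a single hairpin, and the 3 hairpins Mir669f, Mir669e and Mir669l stand near each other at the upstream end of the array, between 10467229 and 10469068. Mir669b and Mir669d lie in the same stretch, and miR-669b-5p (2.03) and miR-669d-5p (2.38) had lower ratios. These miRNAs match 3 and 2 hairpins of the intron, so their reads are not tied to that stretch.

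For the 3p arms of miR-669 a difference was not detectable in the sum. They summed to 104 reads in TAMs and 115 in SMs, a ratio of 1.05 (0.795 to 1.38). miR-669a-3p, counted with miR-669o-3p, made up most of them, with 71 reads in TAMs and 100 in SMs (0.822, 0.598 to 1.13). miR-669f-3p had 11 reads in TAMs and 9 in SMs (1.41, 0.533 to 3.86).

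miR-467 had the most reads of the 4 numbers in SMs. Its members summed to 1182 reads in TAMs and 1153 in SMs, 88.7 TPM in TAMs against 74.8 TPM in SMs, a ratio of 1.19 (1.09 to 1.29), and made up 37.4% of the cluster's reads in TAMs and 53.3% in SMs. With every row counted, shared reads included, the ratio was 1.02 and its interval held 1 (0.941 to 1.10). This near-even sum joined arms that moved apart: the 5p arms had a ratio of 1.50 (1.37 to 1.64, from 1090 reads in TAMs and 843 in SMs) and the 3p arms one of 0.344 (0.269 to 0.435, from 92 reads in TAMs and 310 in SMs). The 5p sum counts both miR-467a-5p and miR-467b-5p, which hold nearly the same reads, so its interval is too narrow.

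The 5p arms of miR-467 lay close together, and 0 of 5 reached 2-fold. miR-467a-5p had 345 reads in TAMs and 272 in SMs, 25.9 TPM in TAMs against 17.6 TPM in SMs, a ratio of 1.47 (1.25 to 1.73). miR-467b-5p had 339 reads in TAMs and 262 in SMs, a ratio of 1.50 (1.27 to 1.77). The deposited counts admit ends shifted by up to 2 bases, and these neighbours differ by a 1-base shift, so they hold nearly the same reads and are not separate evidence. miR-467c-5p had 173 reads in TAMs and 145 in SMs (1.38, 1.10 to 1.73), and miR-467d-5p had 151 in TAMs and 95 in SMs (1.84, 1.41 to 2.40). For miR-467e-5p, with 82 reads in TAMs and 69 in SMs (1.38, 0.986 to 1.92), a difference was not detectable at this depth.

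The bases AAGTGC at positions 2 to 7, carried by miR-467a-5p, miR-467c-5p and miR-467d-5p, are also those of miR-294-3p and miR-295-3p of the miR-290 to miR-295 cluster, known from mouse embryonic stem cells. miR-294-3p had 3 reads in TAMs and 0 in SMs, and miR-295-3p had 0 in TAMs and 1 in SMs. Outside the cluster these bases were carried mainly by miR-350-5p, with 165 reads in TAMs and 289 in SMs.

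miR-467a-3p, counted with miR-467d-3p, was the only member with at least 10 reads in a library whose interval lay below 1. It had 6.53 TPM in TAMs against 19.1 TPM in SMs, a ratio of 0.343 (0.266 to 0.436). In SMs it was the second most abundant member, behind miR-669a-5p. The other 3p arms of miR-467 were under 10 reads, among them miR-467c-3p with 0 reads in TAMs and 6 in SMs and miR-467e-3p with 5 in TAMs and 8 in SMs.

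miR-466, the number with most rows, had few reads. Its members summed to 24.2 TPM in TAMs against 15.6 TPM in SMs, with a ratio of 1.55 (1.31 to 1.84). The 5p arms summed to 183 reads in TAMs and 72 in SMs (2.94, 2.23 to 3.92), and the 3p arms to 10.1 TPM in TAMs against 10.7 TPM in SMs (0.94, 0.743 to 1.19). The 5p arms had the higher ratio, as for miR-467 and miR-669.

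miR-466i-5p had the most reads among these 5p arms and does not belong to the Sfmbt2 intron. It had 99 reads in TAMs and 16 in SMs, 7.43 TPM in TAMs against 1.04 TPM in SMs, a ratio of 7.16 (4.20 to 13.0). It consists of G and T throughout, a run of TG repeats that matched 61 annotated hairpins, all outside Sfmbt2, so its reads cannot be assigned to a place. Without it the 5p arms of miR-466 had 84 reads in TAMs and 56 in SMs, a ratio of 1.74 (1.22 to 2.48).

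The other miR-466 members past 2-fold had under 20 reads in each library. miR-466b-5p, counted with miR-466o-5p, had 15 reads in TAMs and 5 in SMs (3.47, 1.20 to 12.2). miR-466h-5p had 18 reads in TAMs and 9 in SMs (2.31, 0.988 to 5.85). miR-466f-3p had 7 reads in TAMs and 18 in SMs (0.450, 0.159 to 1.13). For the last pair the intervals hold 1, so the fold alone put them past the limit.

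The remaining miR-466 members with at least 10 reads lay near even. miR-466a-3p, which stands for 5 names, had 75 reads in TAMs and 91 in SMs (0.954, 0.693 to 1.31). miR-466d-3p had 27 reads in TAMs and 28 in SMs (1.12, 0.633 to 1.96), and miR-466c-5p had 28 in TAMs and 25 in SMs (1.30, 0.729 to 2.32). miR-466n-3p had 12 reads in TAMs and 18 in SMs (0.772, 0.339 to 1.69).

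miR-297 was the lowest of the 4 numbers. Its members summed to 47 reads in TAMs and 73 in SMs, 3.53 TPM in TAMs against 4.73 TPM in SMs, a ratio of 0.745 (0.505 to 1.09) that became 1.05 when scaled by miRNA reads without the 10 most abundant. miR-297a-3p, which stands for 3 names, had 33 reads in TAMs and 42 in SMs (0.909, 0.558 to 1.47). The 5p arms summed to 14 reads in TAMs and 31 in SMs (0.523, 0.257 to 1.01), of which miR-297a-5p had 6 in TAMs and 15 in SMs (0.463, 0.147 to 1.26). Among 5p members with at least 10 reads in a library, miR-297a-5p was the only one at least 2-fold lower in TAMs, and its interval holds 1. Below that minimum, miR-297c-5p had 0 reads in TAMs and 8 in SMs.

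**Figure D3:**
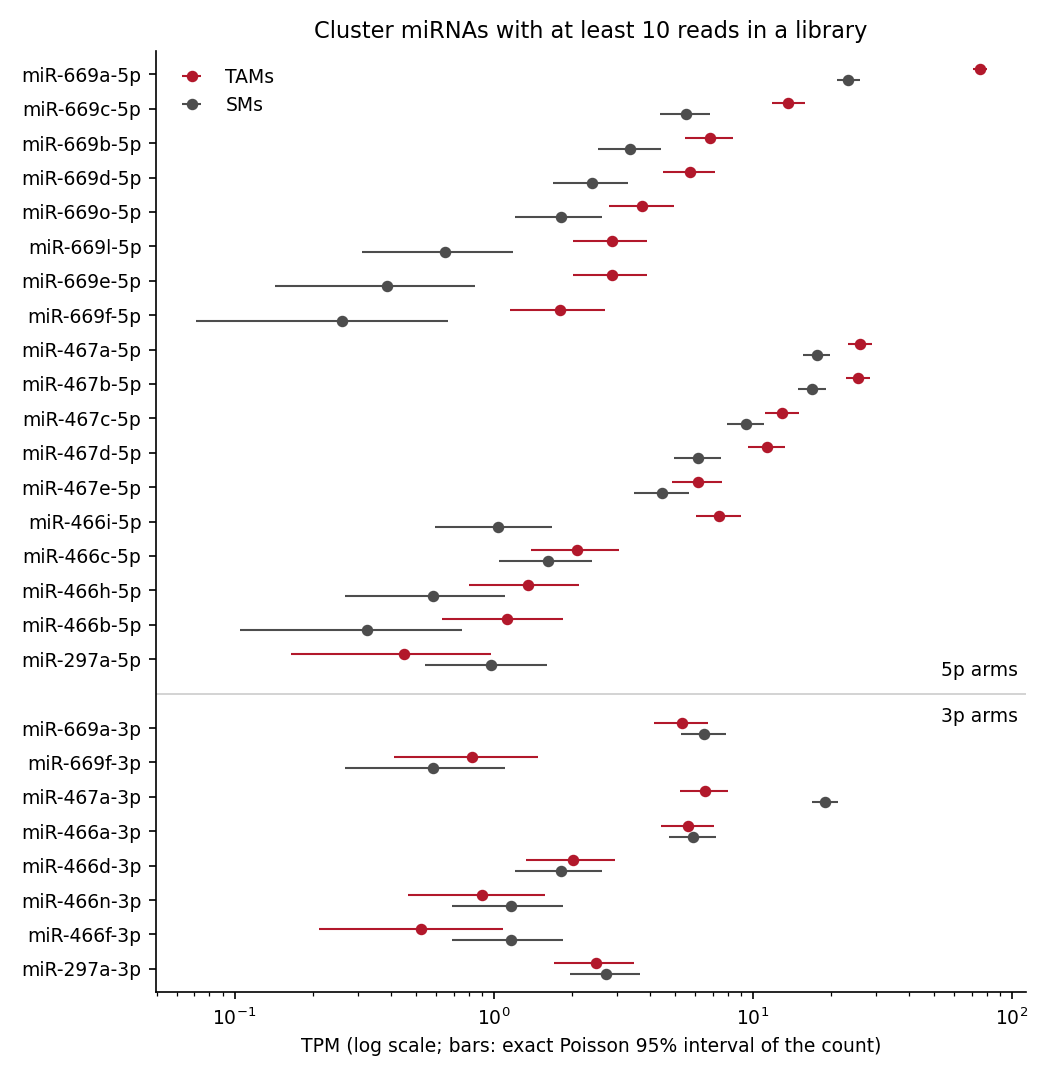
TPM on a log scale (x axis) of the 26 members with at least 10 reads in a library, in TAMs (red, upper point of each pair) and SMs (grey, lower point), with exact Poisson 95% intervals of the count, 5p arms above the line and 3p arms below it. The red point is to the right for 17 of 18 5p members and for 2 of 8 3p members. These shares were not counted over all miRNAs, where the median ratio was 0.916 for 5p and 0.938 for 3p miRNAs.

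The other 21 members had at most 9 reads in TAMs and 8 in SMs and summed to 78 reads in TAMs and 69 in SMs. miR-669b-3p had the most in TAMs, with 9 reads in TAMs and 2 in SMs. miR-466e-5p had 8 reads in TAMs and 0 in SMs. At this depth a count of 0 allows up to 3 counts, or 0.225 TPM in TAMs and 0.195 in SMs, so most of these members were too low for any statement. In all, 4 members were at 0 in TAMs and 6 in SMs.

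**Figure D4:**
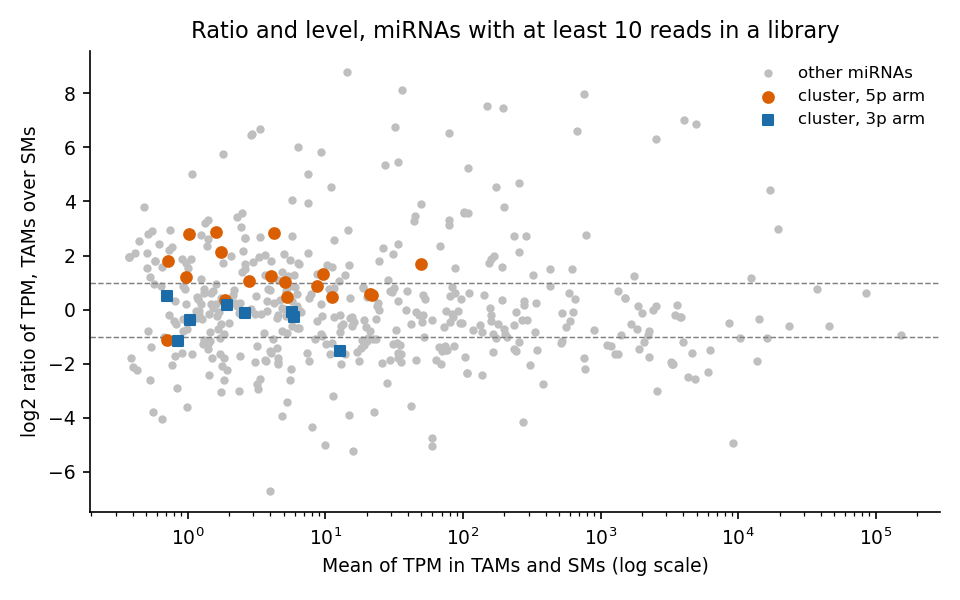
Log2 ratio of TPM, TAMs over SMs (y axis), against the mean TPM of both libraries on a log scale (x axis) for the 469 miRNAs with at least 10 reads in a library; dashed lines mark 2-fold, and a miRNA at 0 is drawn at 3 counts. Of the 26 cluster members, 11 of the 18 5p arms (orange circles) lie at or above the upper line, and the 8 3p arms (blue squares) lie below it.

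Since both arms come from 1 hairpin transcript and are counted in the same library, the 5p count over the 3p count does not depend on how the libraries are scaled. Over the whole cluster this arm ratio was 7.69 in TAMs and 2.42 in SMs, a change of 3.18-fold (exact conditional 95% interval 2.75 to 3.68). It was 2.23-fold (1.88 to 2.66) without miR-467a-3p, and 5.38-fold (4.32 to 6.70) where near-same sequences were counted once whatever their counts. The 5p arms held 88.3% of the cluster's reads in TAMs and 70.6% in SMs. Over all other miRNAs of the table the summed arm ratio was 5.89 in TAMs and 4.90 in SMs, a change of 1.20-fold.

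By number, the arm ratio changed in 3 of the 4. For miR-467 it was 11.8 in TAMs and 2.72 in SMs, a change of 4.36-fold (3.38 to 5.65). For miR-466 it was 1.37 in TAMs and 0.436 in SMs (3.13-fold, 2.16 to 4.54). Without miR-466i-5p it was 0.627 in TAMs and 0.339 in SMs (1.85-fold, 1.20 to 2.84), so the 3p arm then had more reads in both libraries. For miR-669 it was 14.5 in TAMs and 5.07 in SMs (2.85-fold, 2.13 to 3.82). The low miR-297, at 0.424 in TAMs and 0.738 in SMs, had a change of 0.575-fold whose interval holds 1 (0.242 to 1.33).

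Single hairpin names whose arms each had at least 10 reads in TAMs or SMs could be set beside other miRNAs. The count in the other library can be lower, as for miR-669f-5p with 4 reads in SMs. Of 8 such names in the cluster, 6 had an arm ratio at least 2-fold higher in TAMs, where 16.4% of all 140 names did, and 0 had one at least 2-fold lower, where 20% of all names did. The median change was 3.77-fold over the 8 names and 0.938-fold over the 132 names outside the cluster. miR-467a had an arm ratio of 3.97 in TAMs and 0.925 in SMs (4.29-fold, 3.19 to 5.78), and miR-669a one of 14.1 in TAMs and 3.61 in SMs (3.91-fold, 2.78 to 5.50). The largest change was that of miR-467d (5.37-fold, 3.73 to 7.75), and those of miR-669f (4.91-fold, 1.04 to 25.9), miR-466b (3.64-fold, 1.18 to 13.3) and miR-669o (2.52-fold, 1.40 to 4.56) overlapped it and each other in their intervals. The intervals of miR-466c (1.36-fold, 0.698 to 2.65) and miR-297a (0.509-fold, 0.146 to 1.59) hold 1. These names are not independent, because miR-467a and miR-467d share their 3p reads, as do miR-669a and miR-669o, and miR-466b and miR-466c. Nor is each 5p arm tied to its own 3p arm, since near copies spread over up to 15 hairpins.

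**Figure D5:**
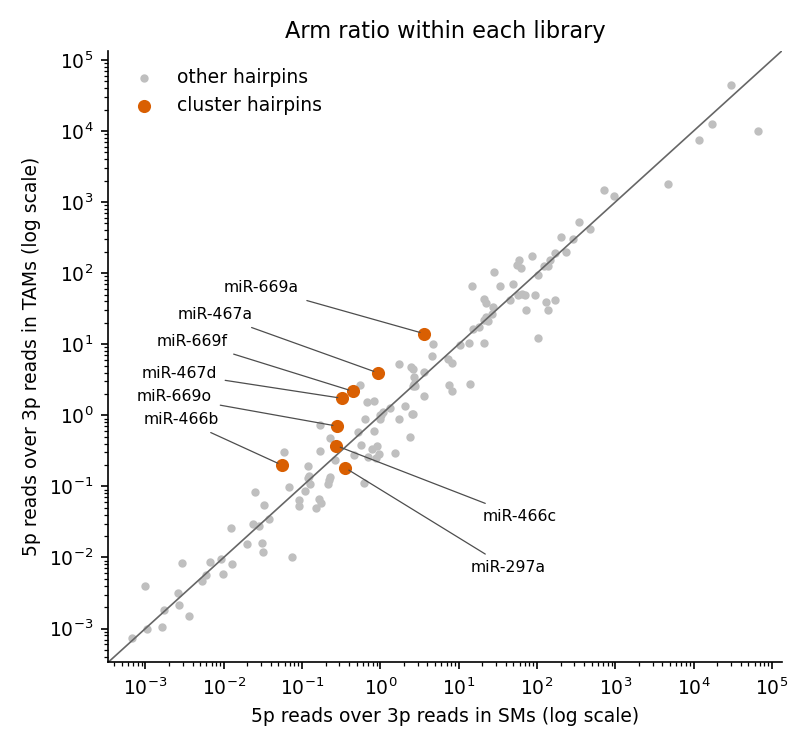
The 5p reads over 3p reads of a hairpin name in TAMs (y axis) against the same in SMs (x axis), both on log scales. Drawn are the 140 names whose arms each had at least 10 reads in TAMs or SMs. The line marks an equal arm ratio in both libraries. The 8 names of the cluster (orange) include 7 above the line and miR-297a below it, where 45.7% of all 140 names lie above it. Other names are grey.

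Seeds were shared within an arm and across numbers. Over the 47 members 28 seeds were found, 11 of them shared by at least 2 members and 1 of them also carried by a miRNA outside the cluster, miR-1187 (1 read in TAMs and 0 in SMs). The seed GTTGTGT of miR-669a-5p, miR-669f-5p and miR-669l-5p summed to 1064 reads in TAMs and 375 in SMs, a ratio of 3.28 (2.92 to 3.70). The seed AAGTGCG of miR-467c-5p and miR-467d-5p summed to 324 reads in TAMs and 240 in SMs (1.56, 1.32 to 1.85). Among the CA-rich 3p arms, the seed ATATACA of miR-467a-3p, miR-669b-3p and miR-669f-3p summed to 107 reads in TAMs and 305 in SMs (0.406, 0.323 to 0.508). That sum is nearly all miR-467a-3p, and without it the other carriers had 20 reads in TAMs and 11 in SMs (2.10, 0.961 to 4.86). Their interval holds 1, so no direction can be read for the seed apart from miR-467a-3p. The seed ATACATA of miR-466a-3p, miR-466d-3p and miR-297a-3p summed to 135 reads in TAMs and 161 in SMs (0.971, 0.766 to 1.23).

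The difference between TAMs and SMs was also seen where a member could be placed. The 23 members that match exactly 1 hairpin of the intron and no other summed to 843 reads in TAMs and 546 in SMs, a ratio of 1.79 (1.60 to 1.99). Their 5p arms had a ratio of 1.89 (1.68 to 2.12), from 769 reads in TAMs and 472 in SMs, and their 3p arms one of 1.14 (0.815 to 1.60), from 73 reads in TAMs and 74 in SMs. All 9 of these 5p members with at least 10 reads had a higher TPM in TAMs, though the intervals of miR-467e-5p and miR-466h-5p hold 1. The share of all 5p miRNAs with a higher TPM in TAMs was not counted, so this is not read as a trait of the cluster. The median ratio over all 5p miRNAs with at least 10 reads was 0.916. The 8 members found in at least 10 hairpins held 61.2% of the cluster's reads in TAMs and 64.1% in SMs and had a ratio of 1.61 (1.50 to 1.73). The 41 members that match the Sfmbt2 intron only had a ratio of 1.67 (1.58 to 1.77), from 3037 reads in TAMs and 2103 in SMs. The 3 members found only elsewhere had one of 4.85 (3.14 to 7.76), from 109 reads in TAMs and 26 in SMs. That sum rests on miR-466i-5p, with 99 of these reads in TAMs and 16 in SMs. miR-466i-3p had 5 reads in TAMs and 6 in SMs, and miR-466k had 5 in TAMs and 4 in SMs.

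Inside the cluster the summed ratio differed by sequence type, but a single member weighed on each sum. Members with TGTGTG summed to 1705 reads in TAMs and 690 in SMs (2.86, 2.62 to 3.13). Members with ACACAC summed to 248 reads in TAMs and 492 in SMs (0.583, 0.499 to 0.681). miR-669a-5p supplied 1002 of the TGTGTG reads in TAMs and 361 in SMs. miR-467a-3p supplied 6.53 of 18.6 TPM of the ACACAC sum in TAMs and 19.1 of 31.9 TPM in SMs. Neither sum was taken without its largest member, so the low ACACAC ratio is not read as a trait of the motif. Outside the cluster 6 miRNAs had a motif and at least 10 reads in a library, and their directions did not all match those of these sums. Of the 4 with TGTGTG, let-7b-5p, at 461 TPM in TAMs against 189.9 TPM in SMs (2.43, 2.32 to 2.54), and miR-206-3p, with 32 reads in TAMs and 6 in SMs (6.17, 2.55 to 18.1), passed 2-fold higher in TAMs. miR-574-5p had 196 reads in TAMs and 129 in SMs (1.76, 1.40 to 2.21), and miR-32-3p, with 7 reads in TAMs and 49 in SMs (0.165, 0.0632 to 0.367), passed 2-fold lower. Of those with ACACAC, miR-574-3p had 267 reads in TAMs and 767 in SMs (0.403, 0.349 to 0.464), and miR-362-3p had 148 TPM in TAMs against 214 TPM in SMs (0.691, 0.654 to 0.731).

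Other mouse miRNA clusters of the embryo, placenta or germ line were read in the same way. The imprinted Dlk1-Dio3 cluster summed to 8404 reads in TAMs and 2675 in SMs, a ratio of 3.64 (3.48 to 3.80). Of its 26 miRNAs with at least 10 reads, 21 passed 2-fold higher in TAMs, where 28.1% of all 469 miRNAs did. Its most abundant miRNA, miR-127-3p, had 414 TPM in TAMs against 95.5 TPM in SMs. The X-linked cluster beside Fmr1 had 27 reads in TAMs and 36 in SMs (0.868, 0.507 to 1.47), of which miR-871-3p had 14 in TAMs and 29 in SMs. The miR-290 to miR-295 cluster had 3 reads in TAMs and 1 in SMs. With 3159 reads in TAMs and 2165 in SMs and a ratio of 1.69, the Sfmbt2 cluster lay between the Dlk1-Dio3 cluster and the X-linked cluster in reads and in ratio.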

How the data were processed

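Both small RNA libraries were made with a TruSeq small RNA kit. The authors deposited a read count for each known mature miRNA, which takes in ends shifted by up to 2 bp, and the same count as TPM, scaled by a library total above the sum of the miRNA reads (55.0% of it in TAMs and 65.5% in SMs). Bowtie2 is named in the submitters' processing notes. Its version, the build and the miRNA release were not given in the sources used here. The sequencer is named differently in the series record and the methods. The deposited table also holds the authors' ratios and p-values, which were not used. Its 2 emptied lines were not analysed here.

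Rows whose sequences matched over at least 16 bases with at most 2 mismatches, and whose counts were equal in both libraries, were counted once. 1 read is 0.0750 TPM in TAMs and 0.0648 TPM in SMs. Ratios of TPM have exact conditional binomial intervals, arm ratios exact conditional odds-ratio intervals, and shares Clopper-Pearson intervals, all at 95% and for counting error only (scipy 1.17.1 and numpy 2.4.6 under Python 3.11.15, tables read with pandas 2.3.3). A count of 0 was set at 3 counts where a fold was read. Folds needed at least 10 reads in a library. TMM factors of edgeR 4.0.16 and size factors of DESeq2 1.42.0 (R 4.3.3) served only as scaling alternatives. Other alternatives were read minimums, fold limits, pseudocounts, totals and ways of counting shared reads. Mature sequences were matched to hairpins of GENCODE M21 on GRCm38 for positions. RefSeq's miRNA table held only 3 members by name, so sequences come from the deposited table. Plots were drawn with matplotlib 3.10.9. Calculations were tested on simulated data.

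Named are the 20 members with most reads, the most abundant member of each number and arm, the members past 2-fold, up to 10 in each direction by size, and the most abundant miRNA of each list set beside the cluster. miR-669b-3p, miR-466e-5p, miR-297c-5p, miR-467c-3p, miR-467e-3p, miR-669f-3p, the single hairpin shown, the names with both arms counted and miR-574-5p, miR-574-3p, miR-32-3p, miR-206-3p, miR-362-3p, miR-295-3p, miR-350-5p and miR-1187 were added after their values were seen. miR-466i-3p, miR-466k and miR-143-3p were likewise added after their values were seen. The members and lists were chosen with earlier results of these data known.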

Additional observations from a re-analysis of the deposited data

How the results depend on the processing

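Of the sums of the cluster, the 4 numbers and the 2 arms, that of miR-297, whose interval holds 1, crossed 1 (0.745 as reported, 1.05 without the 10 most abundant). Other sums a little below 1, such as those of miR-466-3p, of the seed ATACATA and of the X-linked cluster, also pass 1 once multiplied by 1.19 or 1.41. Each scaling multiplies every ratio, by 1.19 (sum of miRNA reads), 1.06 (TMM), 1.05 (DESeq2 size factors) or 1.41 (miRNA reads without the 10 most abundant). In this order without the size factors, the ratio of the whole cluster became 2.01, 1.79 and 2.38. With the first and the last of these scalings, the ratio of miR-466 became 1.85 and 2.19, that of miR-467 1.41 and 1.67, that of miR-669 3.17 and 3.75, that of the 5p arms 2.52 and 2.98, and that of the 3p arms 0.792 and 0.937. Members higher and lower, 11 and 3 of 26, became 12 and 1 with the sum of miRNA reads, where 32.0% and 24.3% of all miRNAs were. Without the 10 most abundant they became 14 and 1, where 36.9% and 20.3% of all miRNAs were. With every row counted, miR-466 had 1.20, miR-467 1.02 and the 5p arms 2.32. Counting only identical sequences once gave 1.50 for the cluster, and counting near-same sequences once whatever their counts gave 1.80, with an arm change of 5.38-fold. Without miR-669a-5p the cluster had 1.38, the 5p arms 1.77 and the arm change 2.67-fold. Without miR-467a-3p the 3p arms had 0.945 and the arm change was 2.23-fold. The 11 higher members became 6 of 26 with 1 TPM added, where 21.5% of all miRNAs passed. At a 4-fold limit they became 4 of 26, where 16.6% of all miRNAs passed. With either setting the cluster was near the share of all miRNAs. With the share of all miRNAs in parentheses, the 3 lower members became 8 of 47 with no minimum (26.1%) and 0 of 26 at 4-fold (9.38%). They became 1 of 17 with a minimum of 30 reads (31.4%). They became 1 of 26 with 1 TPM added (24.3%) or where the interval had to leave out 1 (28.4%). Of 104 alternative values for the 26 single members, 91 stayed within the counting interval and 13 moved beyond it. The alternatives for the arm change, and leaving out miR-467a-3p, miR-466i-5p or, for the 5p arms, miR-669a-5p, were chosen after seeing the data. No paired analysis was possible because TAMs and SMs are 1 library each, and no replicate could be left out for the same reason. Depth limits the 21 members under 10 reads, and the share of reads that near copies lend each other is unknown.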
